A study of Homo sapiens with 6 samples.

Results

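The genes described here encode 10 abundant hnRNP proteins: HNRNPA0, HNRNPA1, HNRNPA2B1, HNRNPC, HNRNPD, HNRNPF, HNRNPH1, HNRNPL, HNRNPM and HNRNPU. They were taken by gene symbol from a table of 57150 genes, and each symbol had 1 row. The study asked how the poly(C)-binding proteins αCP1 and αCP2, themselves also called hnRNP E proteins, act on cassette exon splicing. K562 cells, a human leukemia line studied as an erythroid model, received either siRNAs aimed at both αCP mRNAs or control siRNAs, which had no target or were directed at the unrelated GLD-2 mRNA. There were 3 pools of cells in each group, harvested after 72 h for RNA-seq. The table gives 1 FPKM value (fragments per kilobase of transcript, scaled to library size) and 1 estimated count for each gene in a KD column and in a CTRL column, so no difference below has a replicate check and no test was run. Since these are bulk values, fewer cells of a kind and less RNA per cell cannot be told apart.

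The hnRNP proteins coat nascent transcripts in the nucleus and influence splice site choice, nuclear export, stability and translation of mRNA. Most carry RNA recognition motifs together with glycine-rich or otherwise low-complexity segments. HNRNPC binds uridine tracts and can compete with U2AF65, the factor that recognises the polypyrimidine tract next to a splice acceptor, which links the family to the question of the study. Several hnRNP genes are known to control their own mRNA through alternative exons that lead to decay.

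The names KD and CTRL are used as the columns are labelled, because the targeted genes were not both lower in the KD column. PCBP1, which encodes αCP1, had an FPKM of 184 in the KD column and 188 in the CTRL column, and PCBP2, which encodes αCP2, had 531 and 342. Estimated counts summed to 13699340 and 11680567. Most erythroid markers were near or at 0, against the label of the cells. Of 12 such genes 9 averaged below 1 FPKM, and 7 of these, including GATA1 and KLF1, were listed at 0 in both columns. Only HBE1, an embryonic globin gene, exceeded 5 FPKM in both, at 153 and 35.4. Summed over that list, FPKM was 161.4 in the KD column and 43.1 in the CTRL column. An epithelial list of 8 genes summed to 4369.5 and 3189.5, with 4 members above 5 FPKM in each column. Of the 8 genes, 3 averaged below 1 FPKM: CDH1, at 0.36 and 0.43, and KRT19 and ESRP1, listed at 0. EPCAM was low, at 3.94 and 3.26. Nearly all of the epithelial sums came from KRT18 (2309 and 1748 FPKM), KRT8 (1505 and 819) and KRT7, which was lower in the KD column (539.5 and 604). The part of these differences in the results below was not tested.

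All 10 hnRNP mRNAs were well expressed. Their FPKM ranged from 60.3 to 1023 in the KD column and from 40.7 to 1445 in the CTRL column, and their medians of 225 and 237 stood against 10.9 and 10.5 over the 13741 genes whose FPKM averaged 1 or more. An FPKM over 100 was reached by 9 members in the KD column and by 8 in the CTRL column. The summed FPKM of the 10 genes was nearly equal in the columns, at 3706 and 3731, and their counts made up 0.512% and 0.539% of each column's total. HNRNPA1, HNRNPA2B1 and HNRNPC together held 67.2% of the summed FPKM in each column.

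The order of the members differed between the columns. HNRNPA2B1 was the highest in both by FPKM, at 1023 in the KD column and 1445 in the CTRL column, but not by counts per kilobase of all annotated exons, where HNRNPA1 led in the KD column and HNRNPF in the CTRL column. HNRNPA1 came next in the KD column, at 859 FPKM, but stood behind HNRNPC in the CTRL column, at 469 against 593. The FPKM of HNRNPA2B1 was therefore 1.19 times that of HNRNPA1 in the KD column and 3.08 times in the CTRL column. From counts the same ratio was 1.61 and 2.49. In the middle of the CTRL column HNRNPU, HNRNPD and HNRNPH1 followed each other at 242, 238 and 237 FPKM. HNRNPD did not differ from HNRNPU above it or HNRNPH1 below it beyond the 95% Poisson intervals of their counts. All other neighbours in either column did differ, although these intervals cover counting error only. HNRNPM and HNRNPA0 were the lowest in the CTRL column, while HNRNPD stood between them in the KD column.

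**Figure D1:**
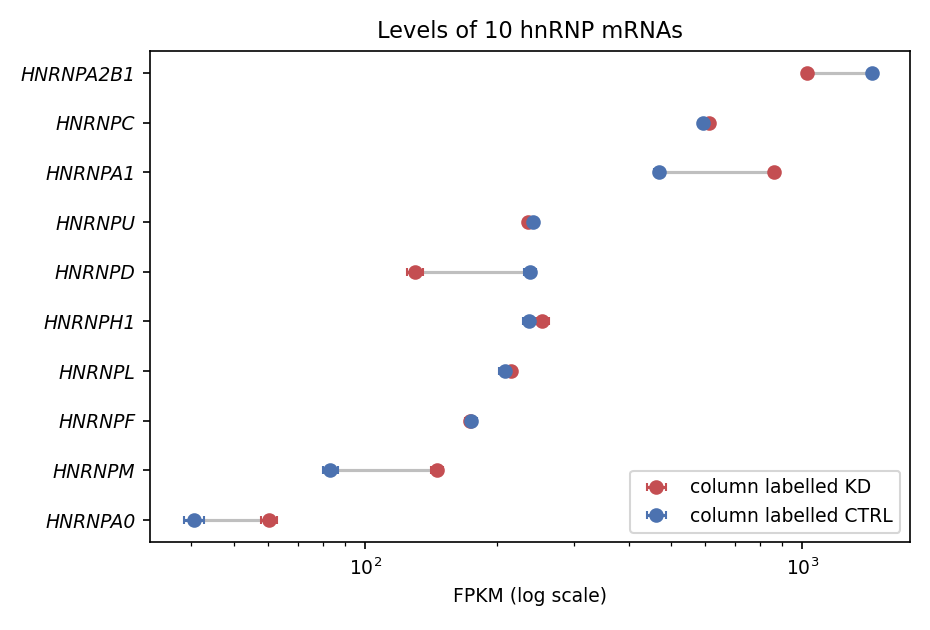
FPKM of the 10 hnRNP genes on a log scale in the KD column (red) and the CTRL column (blue), ordered by the CTRL value, with 95% Poisson intervals that cover counting error only. HNRNPA1, HNRNPM and HNRNPA0 lie to the right in the KD column, HNRNPA2B1 and HNRNPD to the left, and the values of the other genes nearly coincide.

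The columns were compared by log2 ratios of FPKM + 1, KD over CTRL, on which differences between low values appear smaller than they are. No member reached a log2 ratio of 1 in either direction. Over all 13741 genes, 8.51% were at 1 or more and 3.27% at -1 or less (11.8% in either direction). With only 10 members, a count of 0 does not set them apart from these shares. The members had a median of 0.04, with a range of -0.87 to 0.87, beside a median of 0.01 over all genes. For the 1286 genes that averaged 100 FPKM or more the median was 0.25, with 15.1% at 1 or more and 1.17% at -1 or less (16.3% in either direction), and the 9 members in that class had a median of 0.04. The 10 genes thus fell into a group higher in the KD column, a group lower in it and a group of nearly equal level.

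HNRNPA1, HNRNPM and HNRNPA0 were higher in the KD column. HNRNPA1 (ENSG00000135486; chromosome 12, 54673977 to 54680872, plus strand) encodes a shuttling protein that binds splicing silencers and shifts the choice of splice sites. It had 859 FPKM from 11695 counts in the KD column and 469 FPKM from 6832 counts in the CTRL column, which is 1.83-fold higher and a log2 ratio of 0.87. As a share of all counts the log2 ratio was 0.55, with a 95% interval of 0.50 to 0.59 (exact binomial, counting error only). HNRNPM (ENSG00000099783; chromosome 19, 8509651 to 8553998, plus strand), whose protein binds GU-rich sequences in introns, had 146 and 83.2 FPKM from 3754 and 2238 counts. Its log2 ratio was 0.81, and 0.52 from count shares (0.44 to 0.59). HNRNPA0 (ENSG00000177733; chromosome 5, 137081340 to 137090052, minus strand) is a gene without introns whose protein binds AU-rich elements. It had 60.3 and 40.7 FPKM from 2122 and 1428 counts, with a log2 ratio of 0.56 from FPKM and 0.34 from count shares (0.24 to 0.44). All 3 genes stayed above 0 on every scale used. By count shares no member reached 1 in either direction, beside 4.66% of all genes at 1 or more and 5.84% at -1 or less (10.5% in all). After adjustment for GC and length, HNRNPA1 was at 1.03 and was the only member past 1, beside 4.95% of genes at 1 or more and 3.88% at -1 or less (8.83% in all).

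HNRNPD was lower in the KD column on every scale used. The gene (ENSG00000138668; chromosome 4, 83273651 to 83295656, minus strand) encodes AUF1, which binds AU-rich elements and directs many mRNAs to decay. It had 129.9 FPKM from 2185 counts in the KD column and 238 FPKM from 3536 counts in the CTRL column, a log2 ratio of -0.87 and 1.83-fold higher in the CTRL column. Count shares gave -0.92 (-1.002 to -0.85), and adjustment for GC and length gave -0.66. In FPKM, HNRNPD stood at 5.85 times HNRNPA0 in the CTRL column and at 2.15 times in the KD column, and it passed from 2.86 times HNRNPM to 0.89 times.

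HNRNPA2B1 was lower in the KD column by FPKM, and only slightly lower as a share of counts. The gene (ENSG00000122566; chromosome 7, 26210771 to 26241149, minus strand) encodes a close relative of HNRNPA1, which acts in splicing and in the transport of RNA. It had 1023 FPKM in the KD column and 1445 in the CTRL column, a log2 ratio of -0.50. Its unscaled counts were higher in the KD column, at 18774 against 17040, where the total of all counts was also larger. As a share of each column's total the log2 ratio was -0.090 (-0.12 to -0.06), and it was 0.08 relative to the median of all genes on that scale, which lay at -0.18. Adjusted for GC and length, the log2 ratio was -0.27. Relative to the median of all genes, HNRNPA2B1 thus stood lower by FPKM and after adjustment, and slightly higher by count shares.

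The remaining members, HNRNPC, HNRNPF, HNRNPH1, HNRNPL and HNRNPU, had nearly the same FPKM in both columns. HNRNPC (chromosome 14, 21677295 to 21737653, minus strand), the uridine tract binder, had 610.0 and 593 FPKM, a log2 ratio of 0.04. HNRNPU (chromosome 1, 245003940 to 245027862, minus strand), also known as scaffold attachment factor A and a binder of chromatin-associated RNA, had 235 and 242 FPKM, a log2 ratio of -0.04. HNRNPL (chromosome 19, 39327010 to 39342987, minus strand), which binds CA repeats, had 215 and 208 FPKM, a log2 ratio of 0.04. HNRNPF (chromosome 10, 43881065 to 43904634, minus strand) and HNRNPH1 (chromosome 5, 179041179 to 179061785, minus strand) encode related proteins that bind runs of G. HNRNPF had 174 and 175 FPKM, a log2 ratio of -0.01, and HNRNPH1 had 254 and 237, a log2 ratio of 0.10. From count shares these genes lay between -0.40 for HNRNPH1 and -0.16 for HNRNPL, so that the sign of HNRNPC, HNRNPH1 and HNRNPL changed on that scale. Relative to the median of all genes of -0.18, HNRNPC was at -0.06, HNRNPU at -0.06, HNRNPF at -0.07, HNRNPL at 0.01 and HNRNPH1 at -0.22. Adjusted for GC and length, HNRNPC, HNRNPU and HNRNPH1 were at 0.27, 0.26 and 0.22 and HNRNPF and HNRNPL at -0.11 and -0.12, so that HNRNPU and HNRNPL changed sign on this scale.

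**Figure D2:**
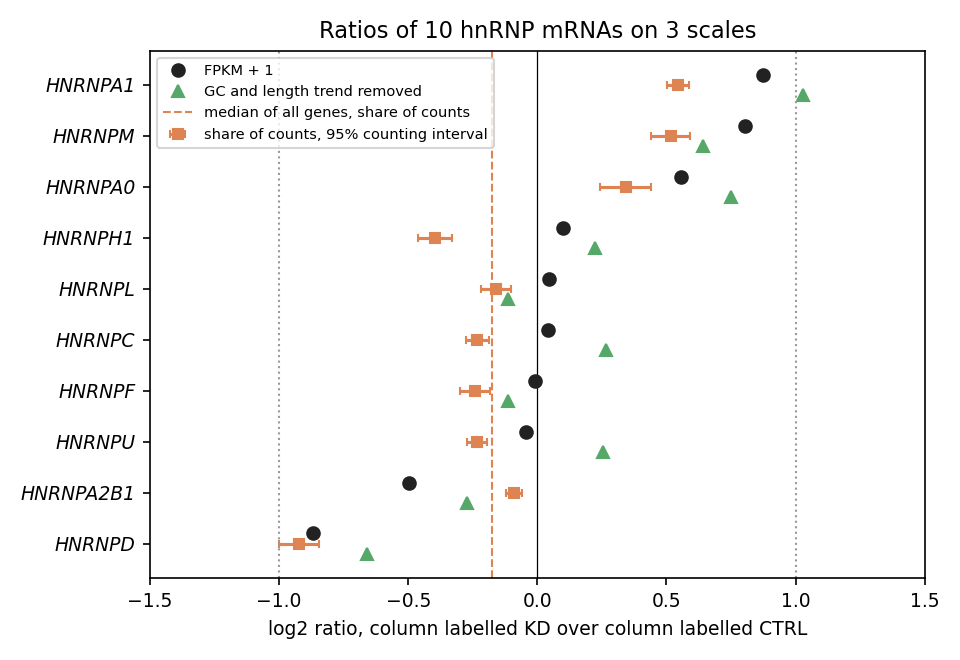
Log2 ratios of the KD column over the CTRL column for the 10 hnRNP genes, from FPKM + 1 (black circles), from shares of the column totals with 95% exact binomial intervals (orange squares), and after adjustment for GC and length (green triangles). HNRNPA1, HNRNPM and HNRNPA0 lie above 0 on all 3 scales, and HNRNPD, HNRNPA2B1 and HNRNPF below 0. The dashed line is the median of all genes for count shares. The squares of HNRNPA2B1, HNRNPC, HNRNPF, HNRNPL and HNRNPU lie -0.07 to 0.08 from it, and that of HNRNPH1 at -0.22.

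The base composition of the genes moved with the ratio over the whole table. In genes with 40% to 45% GC in their exons the median log2 ratio was -0.17 across 3010 genes, and the members in that range, HNRNPA0, HNRNPA1, HNRNPA2B1 and HNRNPH1, had a median of 0.33. Below 40% GC the median was -0.27 across 2117 genes, and HNRNPC, HNRNPD and HNRNPU had a median of -0.04. Between 50% and 55% GC the median was 0.12 across 2138 genes, and HNRNPF, HNRNPL and HNRNPM had a median of 0.04. HNRNPA1 and HNRNPA0, at 42.4% and 41.0% GC, thus stood above 0 in a range where most genes stood below it. The part of base composition in the result of any single member was not tested.

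The number of counts behind 1 unit of FPKM depends, among other things, on the transcript length that Cuffdiff takes from its estimate of a gene's isoform mixture, so it can differ between columns when that mixture does. For HNRNPA2B1 it was 18.4 counts per FPKM in the KD column and 11.8 in the CTRL column. Set against the median of all genes, the log2 shift was 0.63, and 3.02% of 13626 genes had a larger shift in either direction. HNRNPH1 had the opposite shift, with 14.0 and 16.9 counts per FPKM and a log2 shift of -0.27, exceeded in size by 14.8% of genes. The shift of HNRNPD was 0.17 and that of HNRNPA1 was -0.10. The other members lay between -0.07 for HNRNPM and 0.03 for HNRNPU, and for HNRNPA0, HNRNPC, HNRNPF, HNRNPL and HNRNPU between 51.3% and 90.2% of genes had a larger one. HNRNPA0, with 1 annotated transcript, had 35.2 and 35.1 counts per FPKM. The annotation lists 49 transcripts for HNRNPA2B1, of 1580 to 6718 nt, and 49 for HNRNPH1, of 143 to 5564 nt. Whether any isoforms differed, and which, could not be read from the gene table, and the splicing of these genes was not analysed here.

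**Figure D3:**
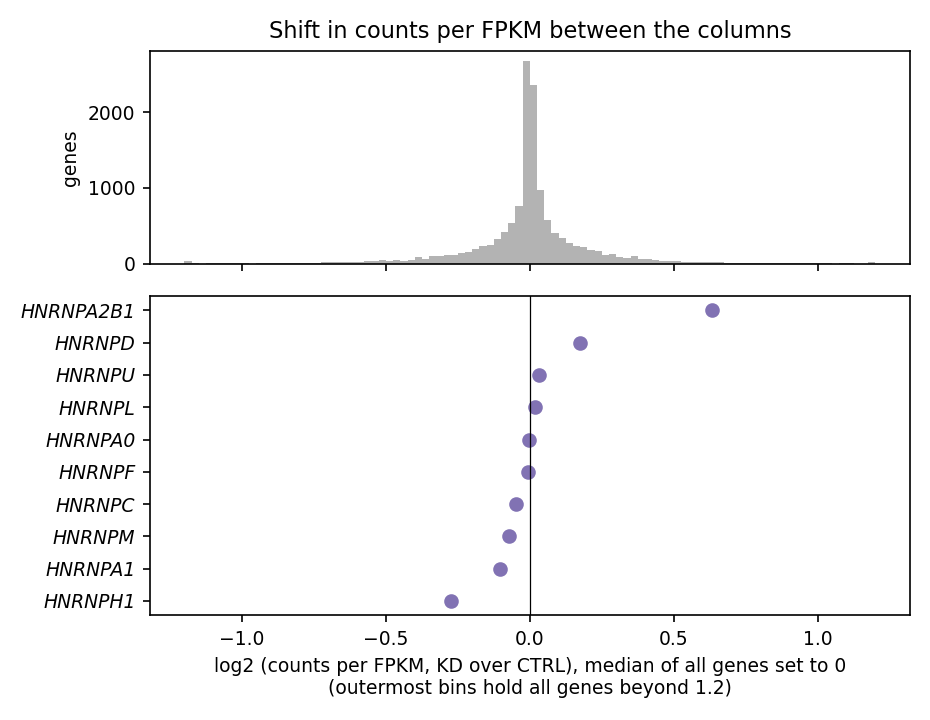
Upper panel, number of genes by the log2 shift in counts per FPKM between the KD and CTRL columns, with the median of all genes set to 0. The lower panel gives the 10 hnRNP genes on the same axis, where HNRNPA2B1 lies at 0.63 and HNRNPH1 at -0.27 on opposite sides of the peak that holds most genes.

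HNRNPA1 has many processed copies in the genome, and reads can be shared with them. The table holds 34 such rows, of which 23 had no counts in either column and 3 had a mean FPKM of at least 10. HNRNPA1L2 had 251 FPKM from 3686 counts in the KD column and 79.2 FPKM from 1171 counts in the CTRL column, a log2 ratio of 1.65, or 1.42 from count shares (1.33 to 1.52). HNRNPA1P7 had 157 and 107 FPKM, with a log2 ratio of 0.55. HNRNPA1P33 went the other way, with 61.3 and 109.7 FPKM and a log2 ratio of -0.83. The copies together held 32.5% of the counts of HNRNPA1 and its copies in the KD column and 29.2% in the CTRL column. Summed with them, HNRNPA1 had 1340 and 774 FPKM and a log2 ratio of 0.79, so the sum was also higher in the KD column. How reads were divided among these rows is uncertain. Copies of HNRNPC held 0.269% and 0.370% of its counts.

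Other genes of the family, 18 in a list of hnRNP proteins outside the 10, had a median log2 ratio of -0.05. Of these, 0 were at 1 or more and 1 at -1 or less, beside 8.51% and 3.27% of all genes. The gene past that limit was HNRNPDL (listed as HNRPDL), the nearest relative of HNRNPD and its neighbour on chromosome 4, at 83343718 to 83351615. It had 40.4 FPKM from 840 counts in the KD column and 151 FPKM from 2745 counts in the CTRL column, a log2 ratio of -1.88, and -1.94 from count shares (-2.05 to -1.83). HNRNPD and HNRNPDL were thus both lower in the KD column, and how reads common to these paralogs were assigned is uncertain. HNRNPAB, in the same list, had 212 FPKM in both columns, a log2 ratio of -0.001, and -0.23 from count shares. The highest ratio in the list was that of RALY, a relative of HNRNPC, with 145 and 81.2 FPKM and a log2 ratio of 0.83. HNRNPA3, a relative of HNRNPA1 and HNRNPA2B1, had 183 and 243 FPKM and a log2 ratio of -0.40. HNRNPH2 and HNRNPH3, relatives of HNRNPH1, were at 0.12 and -0.63, and HNRNPLL, a relative of HNRNPL, was at -0.30. Without PCBP1 and PCBP2, the 16 other genes had a median of -0.13, with 6 ratios above 0 and 10 below.

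**Figure D4:**
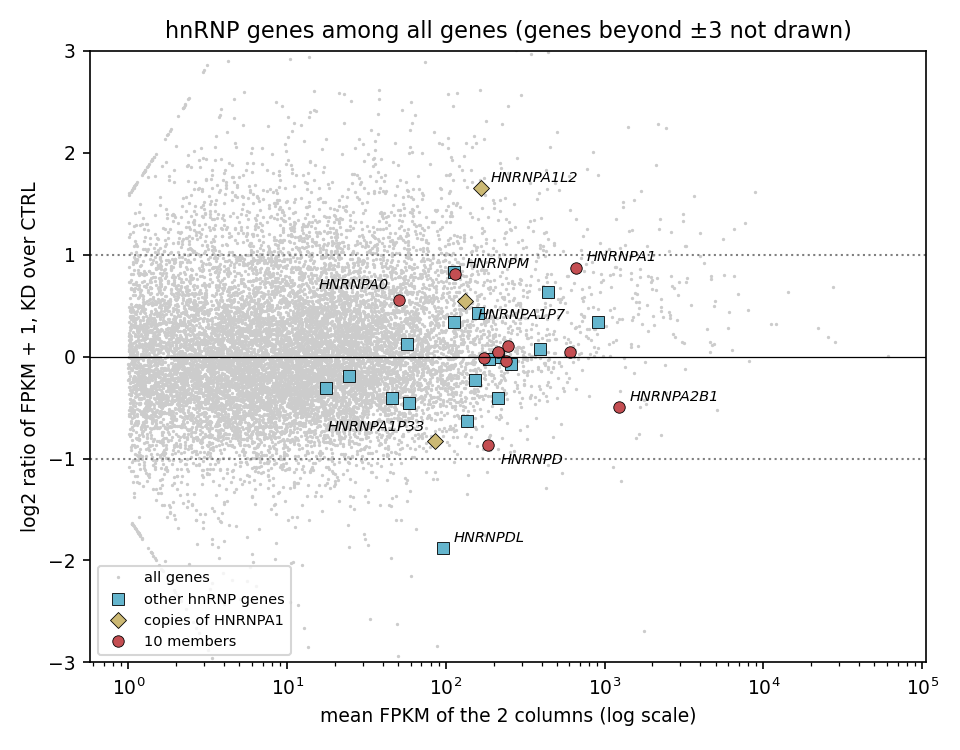
Log2 ratio of FPKM + 1 (KD over CTRL) against the mean FPKM on a log scale for all genes averaging 1 FPKM or more (grey), the 10 hnRNP genes (red circles), 18 other hnRNP genes (blue squares) and the 3 most abundant copies of HNRNPA1 (yellow diamonds). All red circles lie between the dotted lines at -1 and 1, and HNRNPDL and HNRNPA1L2 lie outside them.

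Because the study concerns C-rich polypyrimidine tracts, the 30 nt that precede the AG of each splice acceptor were read for the canonical transcripts of the 10 genes from GRCh37, independently of the measured values. HNRNPA0 has no intron, and of 92 introns in the other genes 91 ended in AG, while 1 in HNRNPL ended in AC and was left out. Their tracts had a median of 20% C and 43.3% T (U in the RNA), beside 26.7% C and 43.3% T over 182449 acceptors of protein-coding genes. C outnumbered T in 9 of the 91 tracts, or 9.89%, and in 29.6% of all acceptors. Runs were searched only on the strand that matches the RNA. The run CCC was present in 22 tracts (24.2%) against 41.6% of all acceptors, and the run TTTT in 57 (62.6%) against 47.4%. A tract can hold both. In genes with an exonic GC content within the range of the members, CCC was present in 27.1% of acceptors and TTTT in 61.2%. The tracts of these hnRNP genes were therefore close in composition to those of genes with similar GC content.

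Single tracts departed from this composition. The most C-rich tracts of HNRNPL, HNRNPA1 and HNRNPM in their canonical transcripts and the T-rich tract with the least C are shown 5′ to 3′. They are given on the strand that matches the RNA, with every C in capitals.
HNRNPL exon 8: CgtCCtCCCtCtCtttCCttCCCaCCCCCC
HNRNPA1 exon 2: CCatttaaCaCttCCCCCtCCCCCCaCtCt
HNRNPM exon 15: CgCatCagtCtCCCttttCttCtCCCCttC
HNRNPC exon 7: gattttaatCtagtattttgtttatattaa

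The HNRNPL tract (chr19:39331019-39331048, minus strand) was 63.3% C, and 98.9% of all acceptors had less C. The tract of HNRNPA1 exon 2 (chr12:54675138-54675167, plus strand) was 56.7% C, above 96.0% of all acceptors, and precedes an exon of 117 nt that another annotated transcript skips. The tract of HNRNPM exon 15 (chr19:8551876-8551905, plus strand) was 46.7% C. The HNRNPC tract (chr14:21680085-21680114, minus strand) was 3.33% C and 56.7% T. In HNRNPU and HNRNPD no tract had more C than T, and in HNRNPA2B1 none did either. HNRNPL had the highest median, at 33.3% C over 11 tracts, and HNRNPA2B1 the lowest, at 15% over 10. A tract rich in C is a description of the sequence and not evidence of αCP binding.

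**Figure D5:**
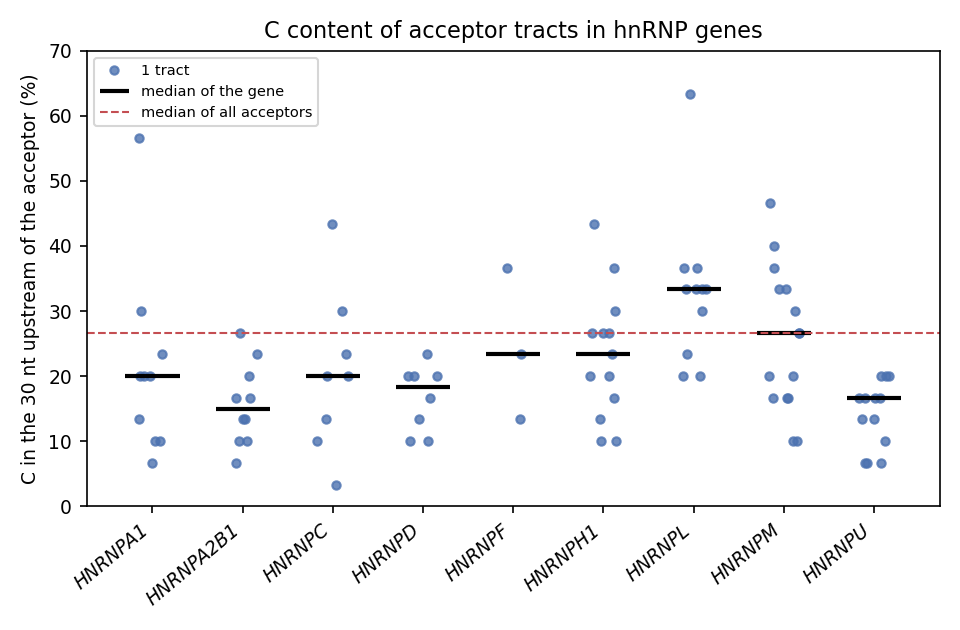
Percentage of C in the 30 nt upstream of each splice acceptor of the canonical transcripts of 9 hnRNP genes (points, 91 tracts), with the median of each gene (black bars) and of all acceptors (dashed line, 26.7%). Most points lie below the dashed line, and single tracts of HNRNPL (63.3%) and HNRNPA1 (56.7%) lie far above it.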

How the data were processed

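RNA-seq was performed on K562 pools transfected with αCP1/2 siRNAs (3) or control siRNAs (3). Per the labels and methods, the authors mapped reads with TopHat 1.4.1 to hg19 and Ensembl release 65 and calculated FPKM and estimated counts with Cuffdiff 2.2.0. The deposited table holds 1 FPKM value and 1 estimated count per gene and group, and how libraries were combined is not given in the sources used here. Of the positive estimated counts, 78.4% (KD) and 79.4% (CTRL) were whole within 0.0001, and they were rounded only for intervals. The intervals treat these estimates as plain counts, although each column total lies below the mapped pairs the paper lists for any single library. They are therefore approximate. Columns of the authors' own fold changes, p-values and FDR, and of average, maximum and minimum FPKM, were not used.

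For log2 ratios 1 was added to each FPKM value. Count shares were compared with 95% exact binomial intervals, with 1 CPM added where all genes were summarised. Medians over all genes used a mean FPKM of at least 1. Planned linear models, and fits with a replicate block or without single libraries, need separate libraries and were not run. GC content, lengths, coordinates and tracts came from GRCh37 (the hg19 assembly) with GENCODE release 44, which is not the authors' annotation; 13298 genes (96.8%) matched by identifier. The adjustment subtracted a quadratic trend in GC percentage and log2 length. Functions were tested on simulated data. The members, the 18 other hnRNP genes, 4 import and modifying enzymes and the marker lists were chosen with earlier results of these data known. Named are all members, in the hnRNP and enzyme lists the genes past a log2 ratio of 1 and the highest and lowest, and the 3 genes nearest to the members' median position. Marker genes, U2AF2, HNRNPAB, relatives of members, copies of HNRNPA1, overlapping genes and the tracts shown were chosen after their values were seen. Software comprised pysam 0.24.0, matplotlib 3.10.9, scipy 1.17.1, pandas 2.3.3 and numpy 2.4.6 under Python 3.11.15. Some items are not reported here.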

Additional observations from a re-analysis of the deposited data

How the results depend on the processing

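Across 85 values under alternatives, 52 moved less than their limit and 33 moved more. The limit was the distance from centre to bound of the counting interval for a gene, the median of these for a list, the binomial interval for the tracts, 7 of 10 ranks for the order, and 1.5 times for a count of genes. The cause was not tested.

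With counts divided by column totals, which moved the median of all genes to -0.18, the log2 ratios were 0.34 (HNRNPA0), 0.55 (HNRNPA1), -0.090 (HNRNPA2B1), -0.23 (HNRNPC), -0.24 (HNRNPF), -0.40 (HNRNPH1), -0.16 (HNRNPL), 0.52 (HNRNPM) and -0.24 (HNRNPU). HNRNPC, HNRNPH1, HNRNPL and the member median thus changed sign. The median was -0.20 for the members and -0.29 for the other hnRNP genes, and 641 genes were at 1 or more and 803 at -1 or less, against 1169 and 450. Adjusted for GC and length they were 0.75 (HNRNPA0), 1.03 (HNRNPA1), -0.27 (HNRNPA2B1), 0.27 (HNRNPC), -0.66 (HNRNPD), -0.11 (HNRNPF), 0.22 (HNRNPH1), -0.12 (HNRNPL), 0.64 (HNRNPM) and 0.26 (HNRNPU), with a sign change for HNRNPL and HNRNPU, a member median of 0.24 and 658 genes at 1 or more. With copies included HNRNPA1 was at 0.79. A pseudocount of 0.1 gave 791 genes at -1 or less, and an FPKM over 5 in at least 1 column gave 292, where fewer genes were counted.

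Counts per kilobase of all annotated exons left 2 members at their FPKM rank in each column. HNRNPA1 was then highest in the KD column (127 against 109 CPM per kilobase for HNRNPA2B1) and HNRNPF in the CTRL column (128 against 116). With the canonical transcript, an alternative chosen after seeing the data, 6 kept it in the KD column and 5 in the CTRL column, and HNRNPA2B1 remained the highest and HNRNPA0 the lowest in both. Over 50 nt the tracts had a median of 18% C. No paired analysis was possible because the deposited values are already 1 per group, and for the same reason no library could be left out.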

Other observations

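Enzymes that import or modify hnRNP proteins were listed apart from the family. TNPO1, which encodes transportin 1, the import receptor of HNRNPA1 and its relatives, had 47.0 FPKM in the KD column and 72.2 in the CTRL column, a log2 ratio of -0.61, and -0.91 from count shares (95% exact binomial interval -0.98 to -0.85). TNPO2, PRMT1 and PRMT5, the latter pair arginine methyltransferases that act on glycine-arginine segments, were at 0.06, 0.04 and 0.02 from FPKM and at -0.45, 0.65 and 0.07 from count shares. PRMT1 had nearly equal FPKM, 163 and 159, from 2402 and 1303 counts, and its shift in counts per FPKM was 0.84, larger than that of HNRNPA2B1. None of the 4 genes reached 1 in either direction, beside 11.8% of all genes by FPKM and 10.5% by count shares.

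HNRNPU-AS1, which shares its locus in the table with HNRNPU, had 5.15 FPKM in the KD column and 11.4 in the CTRL column, a log2 ratio of -1.01, from 314 and 696 counts, while HNRNPU itself was at -0.04. The overlap of HNRNPU-AS1 with HNRNPU could not be read from the annotation used here. COX20 overlaps HNRNPU on the opposite strand by 4420 nt and had 71.7 and 70.3 FPKM, a log2 ratio of 0.03. Strand was not stated for the counting, so reads of genes that overlap on opposite strands cannot be told apart. ENSG00000268083 overlaps HNRNPL on the same strand by 3809 nt, with 121 counts in the KD column and 0 in the CTRL column. HNRNPA2B1 overlaps the start of CBX3 on the opposite strand by 368 nt, and CBX3 had 236 and 298 FPKM, a log2 ratio of -0.33.

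The annotation holds 77 forms of cassette exon in 8 of the 10 genes, overlapping forms counted apart. HNRNPA1 had 21 of these forms, HNRNPA2B1 14 and HNRNPH1 13, while HNRNPA0 and HNRNPF had 0. A form was counted where it lies between exons that another transcript joins directly. For 28 forms, all transcripts that hold them in this setting are marked for nonsense-mediated decay. Such a form can also occur in coding transcripts with other neighbouring exons, so the 28 are not exons of decay transcripts alone. C outnumbered T in the tract of 9 of these 77 forms. Among the acceptors of canonical transcripts it did so in 29.6% of all, and in 11.3% for genes within the GC range of the members. The share of forms like those 28 was not counted over all genes. Neither count is therefore read as a trait of these genes.

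The genes nearest to the members' median position in both columns, by distance in log2 (FPKM + 1), were NPC2, ITGB1 and RANP1, at distances of 0.018, 0.035 and 0.046.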
